A study of Mus musculus with 51 samples.

Results

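Cells of the mouse oesophagus that carried both an active Smoothened and floxed Sox9 (Sox9cKO) were compared with cells that carried the active Smoothened alone (SmoM2), across all genes of the deposited count table. The comparison rests on 10 of the 51 libraries of the series, chosen by their labels: 4 Sox9cKO libraries and 6 SmoM2 libraries. Sox9cKO cells came from mice of the genotype Krt5-SmoM2-Sox9fl/fl, and SmoM2 cells from Krt5-SmoM2 mice of strain CD1. Both groups thus carry SmoM2, an activated form of the Hedgehog transducer Smoothened, which the genotype name ties to Krt5, the keratin of basal squamous cells. The labels do not describe the recombinase or how it was induced. In both groups the cells were sorted for high EpCAM. The labels give no age, no time between induction and sorting and, for Sox9cKO mice, no strain, so a difference in any of these and the deletion of Sox9 cannot be told apart. Other groups of the series serve only as levels and gene classes beside the result. These are embryonic oesophagus at E13.5 (Krt8YFP, n = 2), SmoM2 cells with and without a Krt8-YFP reporter signal (K8YFP+ and K8YFP-, n = 3 each), SmoM2 cells with high EpCAM labelled 3w and 7w (n = 4 each), columnar and squamous cells of the squamocolumnar junction (Krt8YFP, n = 4 and 3) and wild type oesophagus (WT, CD1, low EpCAM). WT has 6 libraries, of which 2 pairs were near identical and were counted once each, so that n = 4 for WT. SmoM2 cells with low EpCAM labelled 7w (n = 4) are used for the level of Sox9 only.

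Hedgehog ligands bind the receptor PTCH1 and so release Smoothened, which activates the GLI transcription factors. GLI1 and PTCH1 are targets as well as parts of the pathway, and SmoM2 signals without ligand. SOX9 is a transcription factor of the SOX family, whose HMG box binds DNA at short A/T-rich motifs. It is known for its part in cartilage, hair follicles, the embryonic foregut and columnar epithelia, and it is a known target of Hedgehog signalling in several tissues. The adult oesophagus is lined by stratified squamous epithelium with Krt5 and Krt14 in its basal layer and Krt4 and Krt13 above it, whereas columnar epithelia carry the simple keratins Krt7, Krt8, Krt18, Krt19 and Krt20.

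Sox9cKO libraries held 7.6 to 9.87 M counts and SmoM2 libraries 8.98 to 12.3 M, with a count in 23663 to 27131 and in 26006 to 29047 genes. Values are given as CPM, counts relative to the plain library total, and as log2 fold changes of Sox9cKO over SmoM2 with their SE from edgeR. A count of 0 over a group allows up to 0.0823 CPM in Sox9cKO and 0.0484 CPM in SmoM2 (3 counts, counting error only). No library repeated another: the chi-square per degree of freedom between replicates was 16.4 to 38.6 in Sox9cKO and 7.5 to 29.6 in SmoM2. The labels do not tie the libraries to separate animals, so p-values measure the spread between these libraries. On the first principal component Sox9cKO 1, 3 and 4 stood at 55.1, 65.8 and 44.6, Sox9cKO 2 at -6.73 and the SmoM2 libraries between -34.2 and -14.4. SmoM2 1 had 3771 CPM of Xist, against 2.76 to 7.86 in the other 9 libraries, almost no count of 4 Y-linked genes, and alone a raw name with the leading number 1. Counts of near-identical gene copies differed between libraries of a group: the ribosomal pseudogene Rps3a3 read 3.38, 3.04, 1.84 and 2.04 CPM in Sox9cKO, 3.37 in SmoM2 1 and 91.2 or more in SmoM2 2 to 6, so that its call as lower (-4.93 ± 0.73) is uncertain. Squamous identity was present in all 10 libraries, with Krt5 at 3072 or more CPM in Sox9cKO and 2209 or more in SmoM2. Epcam, used in the sort, was at 233 to 300.1 CPM in Sox9cKO and 246 to 355 in SmoM2.

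**Figure D1:**
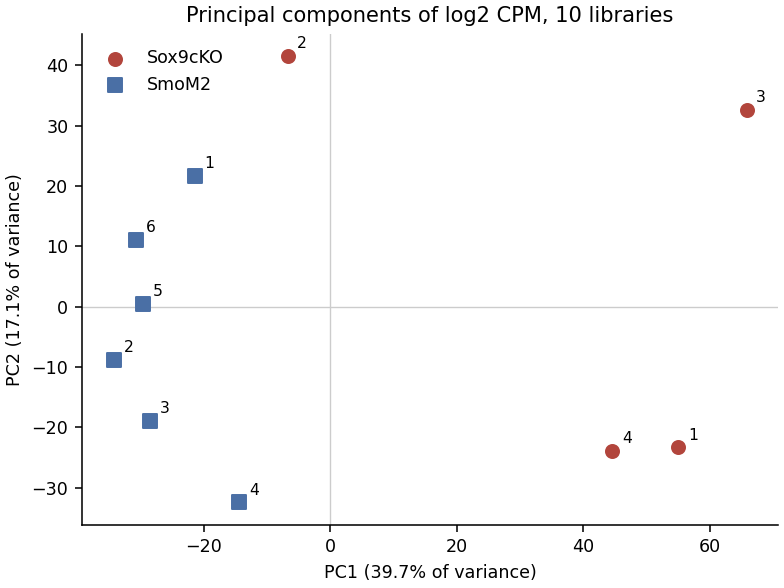
Each point is a library, placed by the first (horizontal, 39.7% of the variance) and the second principal component (vertical, 17.1%) of log2 CPM; circles are Sox9cKO and squares SmoM2, with replicate numbers. Sox9cKO 1, 3 and 4 lie between 44.6 and 65.8 on the horizontal axis, Sox9cKO 2 lies at -6.73, and the SmoM2 libraries lie between -34.2 and -14.4.

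The deleted gene was only partly lower at the level of its counts. Sox9 (chr11:112782224-112787760, plus strand, GRCm38) read 51.7, 45.7, 127 and 45.8 CPM in Sox9cKO 1 to 4, against 72.7 to 194 (median 90.0) CPM in SmoM2. Sox9cKO 1, 2 and 4 lay below every SmoM2 library, whereas the library labelled Sox9cKO 3 lay inside the SmoM2 range, above 5 of its 6 libraries. The log2 fold was -0.62 ± 0.36 (edgeR adjusted p = 0.361). The mean of log2(CPM + 1) differed by -0.73 between Sox9cKO and SmoM2 (two-sided exact permutation test over 210 assignments, p = 0.0762). Without the library labelled Sox9cKO 3 that difference was -1.07 (exact permutation p = 0.0238), and the edgeR fold was -1.16 (edgeR adjusted p = 0.0996). Sox9cKO 1, 2 and 4 lie below every SmoM2 library, so this permutation p is the smallest possible. It follows from leaving out the library singled out by its Sox9 value and adds no support. Without SmoM2 1, the highest SmoM2 library, the edgeR fold was -0.33 (edgeR adjusted p = 0.57), and without both libraries it was -0.87 (edgeR adjusted p = 0.0209). Leaving out both was a choice made after the data were seen. The counts are per gene, so reads of a deleted portion and of what remains of the gene cannot be told apart. Since Sox9 in the library labelled Sox9cKO 3 goes against its label, main results are also given without it.

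A second transcript at the locus separated the groups in full. Gm11681 (chr11:112792731-112799008, minus strand) is a long intergenic non-coding RNA and was chosen after its values were seen. Its nearer end, where the gene ends on its own strand, lies 4971 bases past the end of Sox9. It read 6.43, 9.22, 17.5 and 6.53 CPM in Sox9cKO 1 to 4, against 0 to 0.209 (median 0.0957) CPM in SmoM2. All 4 Sox9cKO libraries lay above all others, and the highest of the 47 other libraries of the series, WT, embryo and columnar cells included, read 0.922 CPM. The log2 fold was 6.56 ± 0.51 (edgeR adjusted p = 8.97e-05), and by exact permutation p was 0.00952, the smallest possible here. Full separation fixes this permutation p, so for a gene chosen after its values were seen it adds no support. The fold was 6.12 without the library labelled Sox9cKO 3 (edgeR adjusted p = 6.35e-05). That library had the highest value of Gm11681. Within 5 Mb on each side of Sox9, 7 of 110 tested genes were called (6.36%, against 3.09% on chromosome 11), among them the proton channel gene Otop2 at 17.1, 22.5, 12.8 and 19 CPM in Sox9cKO and 32.2 to 61.6 (median 49.4) in SmoM2 (-1.37 ± 0.2), also chosen after its values were seen.

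**Figure D2:**
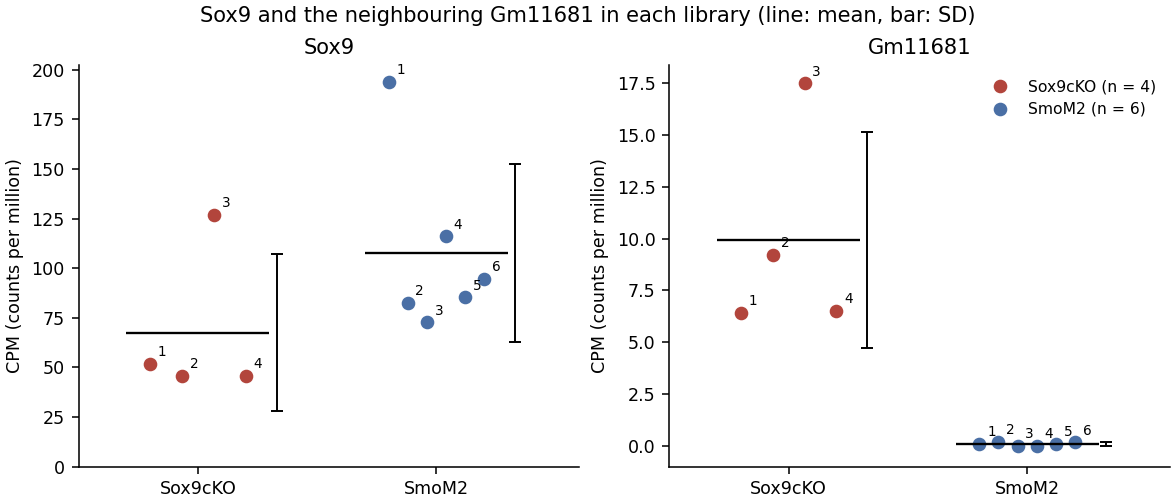
CPM of Sox9 (left) and Gm11681 (right) in each library, with the replicate number beside each point, the group mean as a line and the SD as a bar. Sox9 in Sox9cKO 3 lies at 127 CPM among the SmoM2 values, whereas Gm11681 is at 6.43 CPM or more in every Sox9cKO library and at 0.209 or less in every SmoM2 library.

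Across the 17047 genes tested, 454 (2.66%) were called at an edgeR adjusted p under 0.05, 201 of them higher (1.18%) and 253 lower (1.48%) in Sox9cKO. Lower genes moved further: their median log2 fold was -1.84, and 211 of them fell by 1 or more on this scale, whereas higher genes had a median of 0.79 and 62 of them rose by 1 or more. The median over all tested genes was 0.001. The groups did not overlap in 383 of the called genes, and over all tested genes they did not overlap in 3.67% with Sox9cKO below and in 1.95% with Sox9cKO above SmoM2. An unadjusted p under 0.05 was seen in 3355 genes. The size of the list depends on single libraries: 207 genes were called without the library labelled Sox9cKO 3 (196 of them shared with the 454), 219 without Sox9cKO 1, 2150 without Sox9cKO 2 (454 shared), and 230, 263 and 250 without SmoM2 2, 3 and 5. Whichever of the 10 libraries was left out, 91 lower and 62 higher genes were called.

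**Figure D3:**
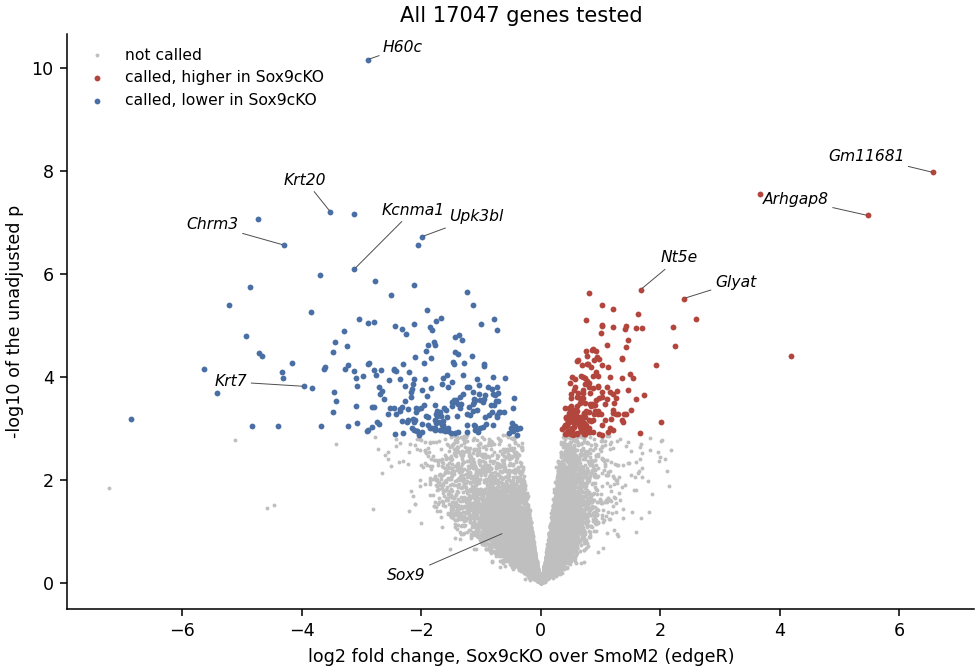
Each point is a gene; the horizontal axis is the log2 fold change of Sox9cKO over SmoM2 and the vertical axis the unadjusted p as -log10. The 201 genes called higher (red) mostly lie closer to 0 than the 253 called lower (blue), Gm11681 and Arhgap8 being the furthest to the right, and Sox9 lies among the genes not called.

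Of the 19 tested members of the simple epithelial and columnar list, 4 fell and none rose (median -0.3), beside a background of 1.48% of all tested genes called lower. Krt20 alone among them was called whichever library was left out. This keratin of gastric and intestinal surface cells and of urothelium read 3.7, 3.85, 2.37 and 2.96 CPM in Sox9cKO, against 15 to 44.4 (median 43.6) CPM in SmoM2. The 4 Sox9cKO values lay together far below 5 SmoM2 libraries at 41.0 to 44.4 CPM, with SmoM2 6 the lowest at 15. Its fold was -3.52 ± 0.32 (edgeR adjusted p = 0.000204). Krt7, a keratin of ducts and of the transitional epithelium at the junction, read 0.218, 0.608, 0 and 0.408 CPM in Sox9cKO, against 0.897 to 10.2 (median 5.42) in SmoM2, without overlap (-3.96 ± 0.75, edgeR adjusted p = 0.0164). It was not called without Sox9cKO 1 (edgeR adjusted p = 0.0576). The other called members were Cldn7, a tight junction claudin (-1.75 ± 0.38), and Krt18 (-1.77 ± 0.4), Krt18 being chosen after its values were seen. Cldn7 was not called without Sox9cKO 1, 3 or 4 or SmoM2 2 (edgeR adjusted p = 0.0674 to 0.0875), and Krt18 not without Sox9cKO 1, 3 or 4 or SmoM2 1, 2, 4 or 5 (edgeR adjusted p = 0.0533 to 0.105). Krt8, the partner of Krt18, read 1.42, 1.01, 1.18 and 0.817 CPM in Sox9cKO and 0.979 to 8.55 (median 3.7) CPM in SmoM2, a fold of -1.85 ± 0.55 that did not pass (edgeR adjusted p = 0.0921), and Krt19, chosen after its values were seen, read 6.1, 5.27, 8.82 and 5.92 CPM in Sox9cKO and 5.22 to 10.6 (median 6.98) CPM in SmoM2. Without the library labelled Sox9cKO 3, 2 list members were lower, and without Sox9cKO 1 only Krt20.

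Few genes of the endoderm, intestinal and gastric lists were expressed enough to be tested, and 1 of 3, 1 of 8 and 0 of 4 fell (background 1.48%). Foxa1, a pioneer factor of foregut endoderm, read 70.4, 81.3, 60.4 and 75.2 CPM in Sox9cKO, against 88.6 to 130.2 (median 114) in SmoM2, without overlap (-0.61 ± 0.13, edgeR adjusted p = 0.0291). It was not called without Sox9cKO 1, 3 or 4 or SmoM2 2, 4 or 5 (edgeR adjusted p = 0.0556 to 0.101). It is 1 of 3 tested among 20 endoderm and columnar factors. Foxa1 averaged 434 CPM in columnar and 178 in squamous junction cells, and 118 in WT cells. Its mean was 114 CPM in 3w and 70.4 in 7w cells, the latter near the Sox9cKO mean of 71.8. Such levels are thus not particular to the deletion. Of the intestinal genes Cftr, the apical chloride channel, fell, with 0, 0.101, 0 and 0.204 CPM in Sox9cKO and 0.816 to 3.08 (median 1.99) CPM in SmoM2 (-4.33 ± 0.76). Without SmoM2 1, 2, 3 or 4 it missed the minimum count and was not tested. Psca, a surface antigen of gastric and urothelial cells, had 0.327, 0.912, 0.132 and 0.306 CPM in Sox9cKO and 1.96 to 19.2 (median 6.51) CPM in SmoM2 (-4.31 ± 0.78). Another 3 genes were chosen after their values were seen and belong to no list. Upk3bl, a uroplakin-like gene, read 12, 19.3, 12.4 and 25.2 CPM in Sox9cKO, against 61.4 to 85.3 (median 68.4) in SmoM2 (-1.99 ± 0.2), Plac8 0.98, 3.85, 0.658 and 1.12 CPM, against 4.97 to 17.5 (median 11.3) (-2.76 ± 0.49), and Gcnt3, a glycosyltransferase that branches mucin sugars, 0.218, 0.203, 0.132 and 0.102 CPM, against 0.652 to 4.87 (median 1.99) (-3.61 ± 0.62). None of these 3 overlapped between the groups, and each was called whichever library was left out. In columnar junction cells Upk3bl averaged 0.353 CPM, Plac8 320 and Gcnt3 416. In 3w cells the 3 averaged 16.7, 1.88 and 0.139 CPM, near their Sox9cKO means of 17.2, 1.65 and 0.164. In 7w cells they averaged 39.4, 2.17 and 0.388 CPM. Levels like those of Sox9cKO are thus not particular to the deletion. The 4 tested gastric genes had a median fold of -0.67.

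Other genes among the 12 largest falls without overlap between the groups were Chrm3, Ugt8a, Tspan12, Tgm7 and Grk3. Chrm3, the muscarinic acetylcholine receptor of glands and smooth muscle, read 0.871, 0.811, 0.132 and 3.16 CPM in Sox9cKO, against 20 to 37.4 (median 25.7) CPM in SmoM2 (-4.3 ± 0.44, edgeR adjusted p = 0.000464). Ugt8a, which makes galactosylceramide, read 0.327, 0.507, 0.132 and 0.51 CPM, against 2.84 to 8.05 (median 5.27) (-3.69 ± 0.43). Tspan12, a tetraspanin of Norrin and Frizzled signalling, read 0, 1.12, 0.263 and 1.02 CPM, against 3.37 to 13.8 (median 7.86) (-3.62 ± 0.63). Tgm7, a transglutaminase, read 0.98, 1.22, 0 and 0.306 CPM in Sox9cKO, against 3.9 to 12.9 (median 7.37) CPM in SmoM2 (-3.47 ± 0.56). Grk3, a receptor kinase, read 0, 0.203, 0.132 and 0.408 CPM in Sox9cKO, against 1.55 to 22.2 (median 2.9) CPM in SmoM2 (-4.83 ± 1.12, edgeR adjusted p = 0.0409), where SmoM2 1 held the highest value and the other 5 lay at 3.23 or less. Grk3 was not called without Sox9cKO 1, 3 or 4 or SmoM2 2 or 3 (edgeR adjusted p = 0.0577 to 0.112), and without SmoM2 1 its fold was -3.57. The potassium channel gene Kcnma1 (-3.12 ± 0.35) and the guidance factor gene Sema3a (-2.78 ± 0.33) fell likewise and were chosen after their values were seen, as was Alcam, a cell adhesion gene at 112, 104, 45 and 126 CPM in Sox9cKO and 242 to 456 (median 356) CPM in SmoM2 (-1.82 ± 0.26). In none of these 8 did the groups overlap, and all but Grk3 were called whichever library was left out. The smallest p of all genes was that of H60c, a ligand of the immune receptor NKG2D, named after its values were seen. It read 5.66, 4.56, 4.34 and 7.66 CPM in Sox9cKO, against 39.6 to 44.8 (median 43.3) CPM in SmoM2 (-2.9 ± 0.15, edgeR adjusted p = 1.15e-06). The SmoM2 libraries lay close together, and WT cells averaged 62.2 ± 23.9 CPM. Transcription factors chosen after their values were seen fell as well: Maf (-1.9 ± 0.25), Zeb2 (-1.79 ± 0.27) and Tfap2c (-1.31 ± 0.26), the last of which was not called without Sox9cKO 1 or 3 (edgeR adjusted p = 0.0612 to 0.0652).

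**Figure D4:**
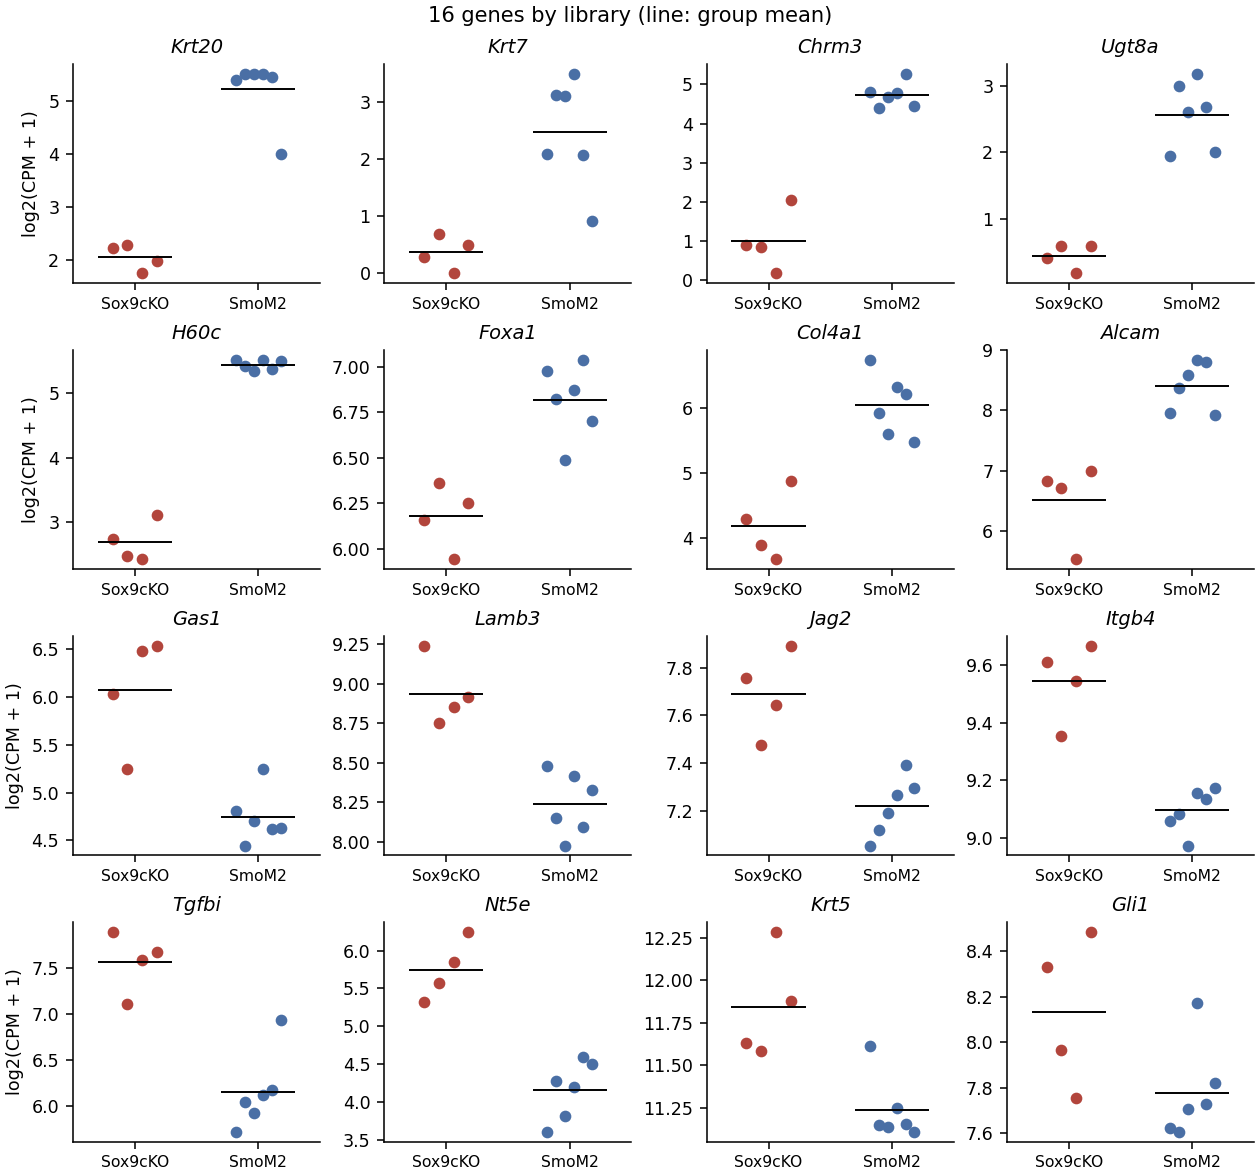
Log2(CPM + 1) of 16 genes in each Sox9cKO (red, left) and SmoM2 library (blue, right), with group means as lines; each panel has its own vertical scale, which does not start at 0. The first 8 genes are lower in all Sox9cKO libraries, the next 6 higher in all of them, and Krt5 and Gli1 overlap between the groups.

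Some genes of the squamous basal layer rose. Of 18 tested members 4 rose and none fell, beside a background of 1.18% of all tested genes called higher, and 17 had a fold above 0 (median 0.37). Jag2, a Notch ligand of basal cells, read 215, 177, 199 and 236 CPM in Sox9cKO, against 132 to 167 (median 149) CPM in SmoM2 (0.52 ± 0.09, edgeR adjusted p = 0.0132). Lamb3, a chain of the basement membrane laminin of squamous epithelia, read 603, 430.2, 461 and 482 CPM, against 251 to 356 (median 301) (0.74 ± 0.13, edgeR adjusted p = 0.0132). Itgb4, the hemidesmosome integrin, read 781, 653, 746 and 811 CPM, against 502 to 576 (median 552) (0.49 ± 0.09, edgeR adjusted p = 0.0151), and was not called without Sox9cKO 3 (edgeR adjusted p = 0.0504). The groups did not overlap in these 3 genes. The fourth, the caveolar gene Cav1 (1.00 ± 0.22), was chosen after its values were seen and was not called without Sox9cKO 1 or 3 or SmoM2 2, 3, 4 or 5 (edgeR adjusted p = 0.0518 to 0.0946). Krt5 read 3177, 3072, 4983 and 3773 CPM in Sox9cKO and 2209 to 3132 (median 2275) CPM in SmoM2 (0.67 ± 0.17, edgeR adjusted p = 0.0598), and Krt14 read 2322, 1545, 2600.3 and 1912 CPM in Sox9cKO and 915 to 1771 (median 1276) CPM in SmoM2 (0.74 ± 0.2, edgeR adjusted p = 0.0681). Both passed without SmoM2 1, the highest SmoM2 library for each (edgeR adjusted p = 0.0208 and 0.0223), and without Sox9cKO 2 (0.0228 and 0.0192). Trp63 (0.28 ± 0.15, edgeR adjusted p = 0.328) and Sox2 (0.11 ± 0.29, edgeR adjusted p = 0.866) did not pass. Without the library labelled Sox9cKO 3, 2 of the basal genes were called higher.

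Of 39 tested squamous differentiation genes, 2 fell and none rose (median -0.17, background 1.48% lower). Mal, a lipid raft protein, read 1.96, 3.85, 0.526 and 2.55 CPM in Sox9cKO, against 9.38 to 54.9 (median 23.9) CPM in SmoM2 (-3.44 ± 0.53, edgeR adjusted p = 0.00603). Mal averaged 1.71 CPM in WT and 3.13 in squamous junction cells, but 157 in columnar junction cells. Its place on the differentiation list is thus uncertain in this series. Sprr2d, a cornified envelope precursor with near-identical copies, read 1.96, 12.2, 0.921 and 0.204 CPM in Sox9cKO and 19.3 to 35.2 (median 29.5) CPM in SmoM2 (-2.82 ± 0.66, edgeR adjusted p = 0.042). Sox9cKO 2 held far more of it than the other 3, and without that library its fold was -4.78 (edgeR adjusted p = 0.000244). It was not called without Sox9cKO 1, 3 or 4 or SmoM2 1, 2, 3, 4, 5 or 6 (edgeR adjusted p = 0.0547 to 0.111). Serpinb3c, a serpin with close copies, read 7.52, 2.64, 2.11 and 1.74 CPM in Sox9cKO, against 21.6 to 99.3 (median 42.1) CPM in SmoM2 (-3.84 ± 0.51). The abundant suprabasal keratins did not pass: Krt13 read 4127, 5427, 4664 and 2604 CPM in Sox9cKO and 2989 to 4569 (median 3932) CPM in SmoM2 (edgeR adjusted p = 0.598), Krt4 read 212 to 1675 CPM in Sox9cKO and 601 to 2057 (median 1679) CPM in SmoM2 (edgeR adjusted p = 0.374), and the epidermal keratin Krt10 had a fold of -0.4 ± 0.24 (edgeR adjusted p = 0.379). Without Sox9cKO 2, 15 members were lower and 1 higher.

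Of 16 tested Hedgehog genes 1 rose and none fell (background 1.18% higher). Gas1, a co-receptor for the ligands, read 64.6, 37.1, 88.2 and 91.5 CPM in Sox9cKO, against 20.8 to 37.1 (median 24.4) CPM in SmoM2 (1.46 ± 0.22, edgeR adjusted p = 0.00571), with the lowest Sox9cKO value just above the highest SmoM2 value. Gas1 included, 15 of 16 had a fold above 0, with a median of 0.39. Gli1 read 321, 249, 215 and 357 CPM in Sox9cKO and 194 to 288 (median 209.5) CPM in SmoM2 (0.41 ± 0.14, edgeR adjusted p = 0.122), and WT cells averaged 0.681 ± 0.213 CPM. Ptch1 read 1967, 1451, 1099 and 2324 CPM in Sox9cKO and 1001 to 1665 (median 1454) CPM in SmoM2 (0.33 ± 0.18, edgeR adjusted p = 0.314). Smo, with transgene and endogenous reads counted together, read 232, 210.1, 198 and 234 CPM in Sox9cKO and 170.2 to 259 (median 195) CPM in SmoM2 (0.11 ± 0.13). Hhip, a target that binds the ligands, had no count in Sox9cKO and at most 0.209 CPM in a SmoM2 library and was not tested. Without Sox9cKO 2, 5 members were higher.

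Members of other signalling lists moved singly, beside a background of 1.18% of all tested genes called higher and 1.48% lower. Of 25 tested Wnt genes 2 rose and 1 fell, with a median of 0.01. Lef1, a partner of beta-catenin, read 0.218, 1.01, 0.263 and 1.53 CPM in Sox9cKO, against 2.04 to 6.57 (median 4.01) CPM in SmoM2 (-2.33 ± 0.49, edgeR adjusted p = 0.0261), and was not called without Sox9cKO 1 or 3 or SmoM2 2 or 3 (edgeR adjusted p = 0.0515 to 0.0773). The ligand genes Wnt7b (0.72 ± 0.16) and Wnt10a (0.73 ± 0.17) rose, but neither was called without Sox9cKO 1 or 3, among others (edgeR adjusted p = 0.0579 to 0.087 and 0.07 to 0.124 over the losses). Wif1, a secreted Wnt inhibitor, read 2.07, 7.91, 3.03 and 20.4 CPM in Sox9cKO and 16.5 to 131 (median 33.1) CPM in SmoM2 (-2.55 ± 0.69, edgeR adjusted p = 0.0703), and the R-spondin receptor gene Lgr5 read 215, 79.5, 31.4 and 200.1 CPM in Sox9cKO and 134 to 264 (median 193) CPM in SmoM2 (-0.53 ± 0.39, edgeR adjusted p = 0.481). Dact1, an intracellular Wnt regulator chosen after its values were seen, fell without overlap, with 2.72, 2.33, 2.24 and 4.08 CPM in Sox9cKO and 8.87 to 16.6 (median 13.3) CPM in SmoM2 (-2.13 ± 0.26). Of 14 Notch genes 2 rose, the ligand genes Jag2 and Dll1 (1.1 ± 0.21, chosen after its values were seen). Of 23 BMP and TGF-beta genes 1 rose and 2 fell: the BMP target Id2 (1.11 ± 0.22), the ligand gene Bmp6 (-0.75 ± 0.15) and Skil, which restrains SMADs (-0.68 ± 0.15). None of these 3 was called without Sox9cKO 1 or 3, among others (edgeR adjusted p = 0.0522 to 0.0887 over the losses). Of 15 ERBB genes the ligand gene Ereg fell (-2.15 ± 0.5), and it was not called without Sox9cKO 1, 3 or 4 or SmoM2 2, 3, 4, 5 or 6 (edgeR adjusted p = 0.0649 to 0.119). The inflammatory cytokine genes Il1a (-2.32 ± 0.34) and Il23a (-1.67 ± 0.23), chosen after their values were seen, fell without overlap.

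Of 37 tested matrix and adhesion genes 3 rose and 2 fell (median 0.2, background 1.18% higher and 1.48% lower). The linked basement membrane collagens Col4a1 and Col4a2 fell: Col4a1 read 18.5, 13.8, 11.7 and 28.4 CPM in Sox9cKO, against 43.5 to 105 (median 66.2) CPM in SmoM2 (-1.88 ± 0.29, edgeR adjusted p = 0.00648), and Col4a2 10.5, 5.68, 8.16 and 11.6 CPM, against 20.1 to 47.6 (median 31.9) (-1.86 ± 0.27). Neither overlapped between the groups, and WT cells averaged 0.801 ± 0.699 CPM of Col4a1 and 0.423 ± 0.413 CPM of Col4a2 (SD). Col4a1 read 2.87 to 4.85 CPM in 3w and 12.4 to 15.3 in 7w cells, below its Sox9cKO mean of 18.1. Col4a2 read 1.31 to 2.61 CPM in 3w and 5.45 to 8.82 in 7w cells, below its Sox9cKO mean of 8.98. In K8YFP- cells the means of both genes, and in K8YFP+ cells that of Col4a2, lay above the Sox9cKO means. Levels like those of Sox9cKO are thus not particular to the deletion. The proteoglycan gene Bgn rose, with 9.26, 5.37, 15.8 and 10.7 CPM in Sox9cKO and 2.71 to 4.32 (median 3.96) CPM in SmoM2 (1.49 ± 0.26), as did Lum (2.01 ± 0.45) and Col18a1 (1.29 ± 0.28), Col18a1 being chosen after its values were seen. Lum was not called without Sox9cKO 3 or 4 or SmoM2 1, 2, 3, 4 or 5 (edgeR adjusted p = 0.0567 to 0.117) and was below the minimum count without SmoM2 6, and Col18a1 not without Sox9cKO 3 or 4 or SmoM2 2, 3, 4 or 5 (edgeR adjusted p = 0.0554 to 0.103). Fibroblast markers moved beside these genes: all 10 tested had a fold above 0 (median 1.38), 1 of them (Lum, shared with the matrix list) passed, and their summed level was 62.0, 37.2, 191 and 54.2 CPM in Sox9cKO 1 to 4, against 22.4 to 40.6 in SmoM2. Col1a1 read 3.35 to 7.89 CPM in Sox9cKO and 1.26 to 4.65 in SmoM2, and Pdgfra 2.03 to 6.43 CPM in Sox9cKO and 0.948 to 3.18 in SmoM2. Genes of connective tissue were also among the largest rises: Col14a1, a fibril-associated collagen (1.73 ± 0.34), was not called without Sox9cKO 4 or SmoM2 5 (edgeR adjusted p = 0.0507 to 0.0564), and Adamts4, an aggrecanase (1.6 ± 0.32), not without Sox9cKO 3 or 4 or SmoM2 2 or 3 (edgeR adjusted p = 0.0502 to 0.077). The proteoglycan gene Cspg4 (1.5 ± 0.32) rose too, and was not called without Sox9cKO 1, 3 or 4 or SmoM2 3 or 5 (edgeR adjusted p = 0.0519 to 0.0839). Cspg4 read 62.3, 71.2, 87.4 and 74.1 CPM in Sox9cKO. It averaged 60.1 ± 31.0 CPM in K8YFP-, 51.3 ± 8.91 in 7w and 19.7 ± 6.5 in WT cells (SD). In 3w cells the mean was 25.7 ± 5.34 CPM and in K8YFP+ cells 14.4 ± 6.02. The part of fibroblasts in these rises was not tested. Without the library labelled Sox9cKO 3 no fibroblast marker was called, whereas 5 were called without Sox9cKO 2. In bulk samples fewer cells of a type and less RNA per cell cannot be told apart.

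The largest rises came from a mixed set of genes. Arhgap8 read 14.5, 6.59, 6.84 and 7.35 CPM in Sox9cKO, against 0 to 0.43 (median 0.163) CPM in SmoM2 (5.47 ± 0.5, edgeR adjusted p = 0.000204), and 2.28 ± 1.7 on average in WT cells. Glyat, a mitochondrial glycine acyltransferase, read 4.47, 7.5, 10.4 and 5.72 CPM, against 0.86 to 2.04 (median 1.38) (2.39 ± 0.3), and the potassium channel subunit gene Kcns3 14.9, 7.7, 10.0 and 13.2 CPM, against 1.49 to 4.95 (median 2) (2.21 ± 0.32). Nt5e, the surface enzyme CD73 that makes adenosine, read 39, 46.6, 56.7 and 74.6 CPM in Sox9cKO, against 11.2 to 23.1 (median 17.8) CPM in SmoM2 (1.67 ± 0.2, edgeR adjusted p = 0.00213). Tgfbi, a secreted adhesion protein, read 235, 137, 191 and 202 CPM, against 51.9 to 121 (median 66.9) (1.43 ± 0.2, edgeR adjusted p = 0.0041), where SmoM2 6 alone exceeded 71.3. The sialyltransferase gene St3gal4 (1.43 ± 0.22) and the adenylate kinase gene Ak1 (1.62 ± 0.22) rose without overlap, and all 7 genes were called whichever library was left out. Cyr61, a YAP target and the called member among 19 tested fetal genes, read 408, 213, 664 and 431 CPM in Sox9cKO and 150.0 to 222 (median 202) CPM in SmoM2 (1.21 ± 0.24, background 1.18% higher). Igf2bp3, an oncofetal RNA-binding protein of the same list, had a fold of -0.59 ± 0.33 (edgeR adjusted p = 0.341).

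Several lists held no called member, which at this depth and spread does not show that they were alike. They were SOX factors (10 tested, median -0.27, among them Sox4 at -0.59 ± 0.25 with an edgeR adjusted p of 0.217, while Sox11 had too few counts to be tested), cartilage targets of SOX9 (8, -0.76, with 5 lower without Sox9cKO 2), hair follicle and placode genes (25, 0.01), interferon genes (15, 0.41), cholesterol synthesis (21, 0.13) and antigen presentation (13, 0.1). Of 37 cell cycle genes 31 had a fold above 0 (median 0.35) and none passed, with Mki67 as an example (0.49 ± 0.17, edgeR adjusted p = 0.136). Without Sox9cKO 2, 12 of them were higher, as were 8 of the stress genes that follow. Of 23 dissociation stress genes 22 had a fold above 0 (median 0.38) and none passed, with a summed level of 18339, 11506, 16988 and 17602 CPM in Sox9cKO 1 to 4 and 11675 to 15816 in SmoM2. The part of this response to handling in other results was not tested. Among the other marker lists, 2 of 6 tested immune markers fell (background 1.48%). They were S100a9, at 0.654, 1.72, 0.132 and 0.204 CPM in Sox9cKO and 4.49 to 29.6 (median 10.2) CPM in SmoM2 (-4.16 ± 0.7), and S100a8 (-3.46 ± 0.67), which was not called without Sox9cKO 3 or 4 (edgeR adjusted p = 0.0554 to 0.063). Squamous cells can make both. The summed level of the immune list was 13.1 to 27.6 CPM in Sox9cKO and 30.9 to 62.0 in SmoM2, with the leukocyte marker Ptprc at 0.395 CPM or less in Sox9cKO and 0.104 or less in SmoM2. Of 3 melanocyte markers Kit fell (-2.12 ± 0.51), and it was not called without Sox9cKO 1 or 4 or SmoM2 2, 3, 4, 5 or 6 (edgeR adjusted p = 0.0583 to 0.106). Endothelial (6 tested), muscle (6), neural (4), enteroendocrine (2) and oesophageal epithelial markers (9) held no called gene.

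Promoters of fallen genes were read for SOX motifs. Sequences are the RefSeq promoters of GRCm38.p6, from 250 bases before to 50 after the start, on the strand of the gene, and 10426 tested genes had one, 148 of them called lower and 135 called higher. The motifs AACAAT and ACAAAG were searched on both strands, and matches of the pair cannot overlap on the same strand. Either was present in 28.4% of the promoters of lower genes, 14.1% of those of higher genes and 18.4% of all. ACAAAG stood in 23.0% of the promoters of lower genes, 12.6% of those of higher genes and 13.7% of all. AACAAT stood in 8.11% of the promoters of lower genes, 1.48% of those of higher genes and 5.71% of all. A match describes the letters and is no sign of binding. Of the 4 genes of smallest p among the largest falls, Krt20, Chrm3, Ugt8a and Serpinb3c, none held a match in this window. Krt20 is printed as their example, beside 3 fallen genes chosen after their matches were seen; capitals mark the motif or its reverse complement. The start used for Foxa1 lies 805 bases from the GENCODE start of the gene.
Krt20 (chr11:99438104-99438403, minus strand): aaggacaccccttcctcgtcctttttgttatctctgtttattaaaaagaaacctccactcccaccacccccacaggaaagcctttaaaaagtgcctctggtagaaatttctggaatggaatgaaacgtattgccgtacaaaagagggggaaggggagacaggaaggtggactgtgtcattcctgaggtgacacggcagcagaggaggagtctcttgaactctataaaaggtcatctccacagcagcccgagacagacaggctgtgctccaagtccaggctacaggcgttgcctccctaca
Foxa1 (chr12:57546062-57546361, minus strand): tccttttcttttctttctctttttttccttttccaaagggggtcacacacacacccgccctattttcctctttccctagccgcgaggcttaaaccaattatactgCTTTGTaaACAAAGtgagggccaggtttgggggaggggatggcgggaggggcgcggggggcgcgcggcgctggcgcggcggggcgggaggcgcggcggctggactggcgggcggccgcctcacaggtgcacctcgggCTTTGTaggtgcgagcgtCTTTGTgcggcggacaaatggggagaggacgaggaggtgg
H60c (chr10:3267722-3268021, minus strand): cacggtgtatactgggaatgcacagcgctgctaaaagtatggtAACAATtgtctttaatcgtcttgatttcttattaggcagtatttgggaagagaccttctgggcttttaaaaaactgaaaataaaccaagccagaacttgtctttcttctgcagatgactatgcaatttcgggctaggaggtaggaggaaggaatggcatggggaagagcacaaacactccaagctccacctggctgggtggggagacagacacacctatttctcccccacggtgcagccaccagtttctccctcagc
Tspan12 (chr6:21852484-21852783, minus strand): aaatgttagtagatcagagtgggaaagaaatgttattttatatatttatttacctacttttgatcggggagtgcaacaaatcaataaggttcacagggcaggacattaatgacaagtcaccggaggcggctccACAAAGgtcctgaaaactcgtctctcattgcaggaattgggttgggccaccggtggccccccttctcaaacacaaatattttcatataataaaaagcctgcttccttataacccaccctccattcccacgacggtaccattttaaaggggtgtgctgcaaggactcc
Foxa1 holds ACAAAG at 4 places, H60c holds AACAAT at 1 place, and Tspan12 holds ACAAAG at 1 place.

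The called genes were also placed in comparisons that share no library with this one. Of all genes tested there, 30.2% were called higher and 25.6% lower in embryo against WT, and 13.1% higher and 6.83% lower in K8YFP+ against K8YFP-. In columnar against squamous junction cells it was 39.2% higher and 35.2% lower, and in SmoM2 7w against WT 22.5% higher and 21.7% lower. Of the 233 genes lower in Sox9cKO that were tested in both, 128 (54.9%) were higher in embryonic oesophagus than in WT, against 23.1% of all genes tested in both, and they make up 3.34% of the embryo-high genes. Conversely, 114 of 194 genes higher in Sox9cKO (58.8%) were lower in the embryo than in WT, against 29.6% of all. In the Krt8-YFP sort, 46 of 197 lower genes (23.4%) were higher in K8YFP+ than in K8YFP- cells, against 12.8% of all, and 42 of 192 higher genes (21.9%) were lower there, against 6.93%. K8YFP+ cells averaged more Krt8 than K8YFP- cells (21.8 against 1.4 CPM), but also more Krt13 (13493 against 5001) and Krt4 (6089 against 737). They averaged less Krt5 (1223 against 3599 CPM) and Mki67 (119.9 against 377). The part of the basal and suprabasal mix in these shares was not tested. At the junction, 102 of 199 lower genes (51.3%) were higher in columnar than in squamous cells, against 34.0% of all, and 101 of 185 higher genes (54.6%) were lower, against 38.3%. In SmoM2 cells labelled 7w with high EpCAM, 85 of 197 lower genes (43.1%) were higher than in WT, against 22.3% of all, as were 63 of 189 higher genes (33.3%). These shares are not matched on expression level, and the gates differ between 7w and WT. The K8YFP classes shrink without single libraries: their 3116 genes became 1804 without K8YFP+ 3, 2045 without K8YFP- 2 and 1016 without K8YFP- 3. Over the settings tried for Sox9cKO against SmoM2, the share of lower genes that were embryo-high ran from 39.5% to 62.7%, and that of higher genes that were embryo-low from 41.7% to 68.5%, the lowest in each case coming from fits without Sox9cKO 2. The share of lower genes that were columnar-high was 33.7% without Sox9cKO 2, close to the 34.0% of all genes, and 58.2% at most without another library, while 45.3% of the lower genes were squamous-high without Sox9cKO 2, above the 38.3% of all. The share of lower genes that were K8YFP+-high was 14.9% without Sox9cKO 4, close to the 12.8% of all, and 28.8% without Sox9cKO 2. For 7w-high the share of lower genes was 35.1% to 52.2% without single libraries. Leaving out single libraries gave 51.2% to 59.8% for higher genes that were columnar-low and 19.7% to 27.4% for those that were K8YFP+-low, but 26.7% and 14.3% of the few genes higher by a log2 fold above 0.5.

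**Figure D5:**
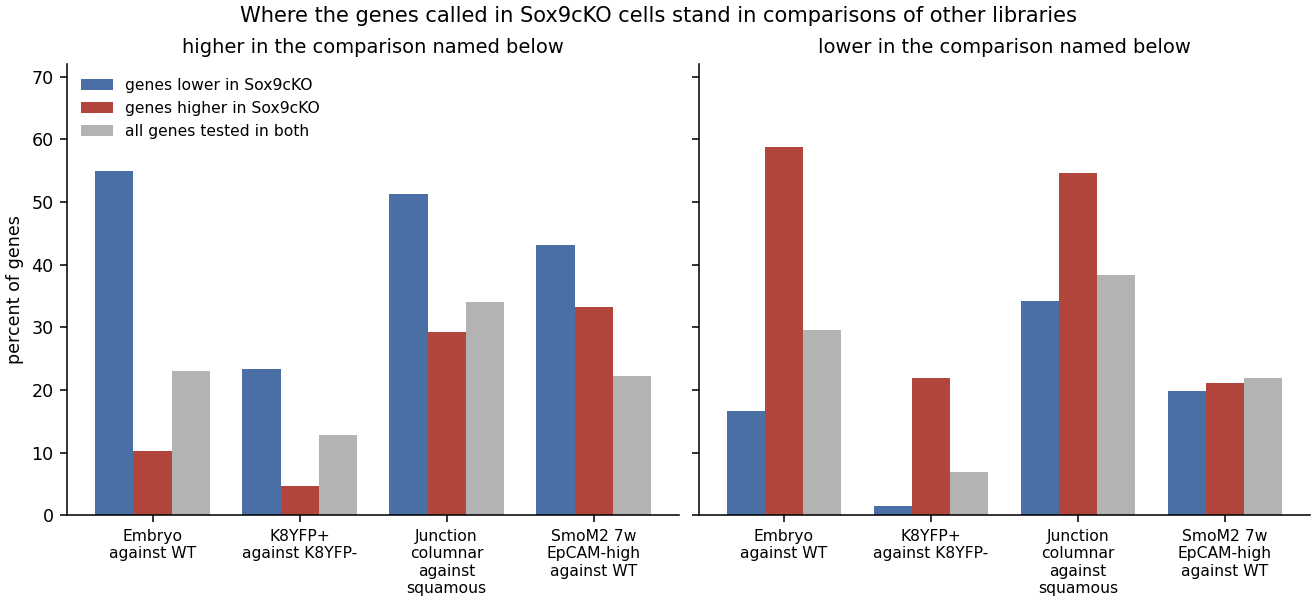
Percent of the genes lower (blue) and higher (red) in Sox9cKO, and of all genes tested in both comparisons (grey), that were higher (left) or lower (right) in each of 4 comparisons of other libraries; bars start at 0. Genes lower in Sox9cKO are higher in the embryo in 54.9%, against 23.1% of all genes, and genes higher in Sox9cKO are lower in the embryo in 58.8%, against 29.6%.

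Levels in those groups (mean ± SD, n as above) show where some of the genes are otherwise found. Krt20 averaged 159 ± 66.6 CPM in embryonic oesophagus and 149.9 ± 88.3 in columnar junction cells. In squamous junction cells it averaged 40.0 ± 8.07 CPM, near its SmoM2 mean of 38.6. The level was 28.8 ± 20.6 CPM in K8YFP+, 11.6 ± 5.25 in K8YFP- and 0.992 ± 0.478 in WT cells. Krt7 averaged 83.4 ± 8.45 CPM in the embryo, 123 ± 39.6 in columnar and 187 ± 10.5 in squamous junction cells, and 0.599 ± 0.328 in WT cells. Cftr averaged 143 ± 48.5 CPM in the embryo and 166 ± 29.8 in columnar cells, and 0.0281 ± 0.0325 in WT. Chrm3 averaged 32.9 ± 13.7 CPM in the embryo and 21.2 ± 2.1 in columnar cells, and 0.0134 ± 0.0267 in WT, and Ugt8a 76.2 ± 35 CPM in the embryo, 37.6 ± 2.88 in columnar cells and 0 ± 0 in WT. All 5 were thus low in WT, and Krt20 and Krt7 were found in squamous junction cells too. All 5 were high in both embryonic and columnar cells. Among the 12 largest falls, Tspan12 and Grk3 were also higher in both than in WT, but others were not. Serpinb3c, Tgm7, S100a9 and S100a8 averaged 0, 0, 0.0923 and 0.138 CPM in the embryo. In columnar cells these averaged 0.0904, 0, 0.0968 and 0.0851 CPM. Psca and Mal averaged 0.184 and 1.2 CPM in the embryo and 314 and 157 CPM in columnar cells. H60c ran otherwise, with 0.184 ± 0.001 CPM in the embryo, 0.608 ± 0.364 in columnar cells and 62.2 ± 23.9 in WT. Among the genes that rose, embryonic cells averaged 4.65 ± 2.69 CPM of Tgfbi and WT cells 125 ± 17.2. For Lamb3 the embryo had 92.3 ± 30.8 CPM and WT 201 ± 41, and for Nt5e the embryo had 10.6 ± 2.93 CPM and WT 1.64 ± 0.804. Arhgap8 and Cyr61 were likewise higher in the embryo (15.2 and 806 CPM) than in WT (2.28 and 119 CPM). In columnar cells Tgfbi, Lamb3, Nt5e, Arhgap8 and Cyr61 averaged 0.397, 91.4, 201, 27.7 and 109 CPM. The other SmoM2 cells with high EpCAM, labelled 3w and 7w, differed by gene. Krt20 averaged 33 ± 6.69 CPM in 3w and 31.6 ± 6.57 in 7w cells, Cftr 3.17 ± 0.31 CPM in 3w and 1.44 ± 0.592 in 7w, and H60c 77.4 ± 8.24 CPM in 3w and 78.4 ± 11.7 in 7w, all above the Sox9cKO means. Ugt8a was at 0 ± 0 CPM in 3w and 0.0758 ± 0.152 in 7w cells, below its Sox9cKO mean of 0.369. Krt7 was at 0.816 ± 0.458 CPM in 3w and 0.535 ± 0.386 in 7w cells, nearer to the Sox9cKO mean of 0.309 than to the SmoM2 mean of 5.48. Chrm3 lay between, at 2.25 ± 0.822 CPM in 3w and 9.92 ± 4.98 in 7w cells, with means of 1.24 in Sox9cKO and 26.1 in SmoM2. Serpinb3c averaged 0.229 CPM in 3w and 0.435 in 7w cells, below its Sox9cKO mean of 3.5. Tgm7, S100a9 and S100a8 also lay below their Sox9cKO means in both. Alcam (179 CPM in 3w and 327 in 7w) and Maf (8.04 and 5.59) lay above their Sox9cKO means of 96.9 and 2.08. The cause of these differences between SmoM2 groups was not tested.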

How the data were processed

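Total RNA of sorted oesophageal cells was sequenced with the Ovation Solo kit on a NovaSeq, per the labels' protocols. The authors deposited raw counts per gene. STAR 2.5.3a, HTSeq, edgeR and the builds GRCm38 and mm10 are named in the submitters' processing notes. Strand setting, annotation and deduplication were not stated, so reads of overlapping, antisense and near-identical genes may be shared. The table held 52636 genes, 52489 of which were found by identifier in GENCODE M21.

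Counts of the 10 libraries went into edgeR 4.0.16 under R 4.3.3 (quasi-likelihood F test, TMM, genes kept with filterByExpr at a minimum count of 10 and a total of 15), and p-values were adjusted by Benjamini-Hochberg over all genes tested, with 0.05 as the threshold. DESeq2 1.42.0 was an alternative. The edgeR script was tested on simulated data. Sox9 and Gm11681 were also tested by an exact permutation test on log2(CPM + 1) (scipy 1.17.1). CPM uses the column total. The WT pairs that were near identical were summed in fits and averaged in levels.

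The members and the 30 gene lists were chosen with earlier results of these data known. Genes were named by rule: anchor genes, the called list members of smallest p (up to 3 in main lists, 1 in the rest), and, in each direction, the 12 largest log2 folds past 1 whose groups did not overlap and whose higher group averaged 5 CPM or more. Any other gene was chosen after its values were seen. Floors and intervals cover counting error only.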

Additional observations from a re-analysis of the deposited data

Results flagged for a closer look

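In 19 of 187 group values tested, the highest or lowest library stood apart from the others of its group by Dixon's criterion at 95%, where chance alone flags about 1 in 20, or 9.3 values. For Sox9 these were Sox9cKO 3 at 127 CPM and SmoM2 1 at 194 CPM. Sox9cKO 3 also held the most counts of fibroblast markers, 191 CPM summed. Among the other Sox9cKO libraries, Sox9cKO 1 stood high for Arhgap8 (14.5 CPM) and Serpinb3c (7.52 CPM), and Sox9cKO 2 for Sprr2d (12.2 CPM), Plac8 (3.85 CPM) and Skil (271 CPM). SmoM2 1 stood high for Krt5 (3132 CPM), Wif1 (131 CPM) and Grk3 (22.2 CPM) and low for the pseudogene Rps3a3 (3.37 CPM). SmoM2 4 stood high for Gli1 (288 CPM), Krt10 (981 CPM) and Gcnt3 (4.87 CPM). SmoM2 5 stood high for Sox11 (0.086 CPM, under the level tested). SmoM2 6 stood high for Tgfbi (121 CPM) and Col14a1 (10.1 CPM) and low for Krt20 (15 CPM).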

How the results depend on the processing

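The number of called genes (454, of them 201 higher and 253 lower) depended on the fit. It was 1206 (561 higher, 645 lower) by DESeq2, 452 of them shared, 1524 (709 and 815) in a fit of all 14 groups, 432 shared, 767 (320 and 447) without a filter on low counts, and 100 (21 and 79) against a log2 fold above 0.5. RLE scaling and a mean of at least 1 CPM kept it within 1.5 times. Leaving out single libraries gave 207 to 2150 genes, 86 to 752 higher and 118 to 1398 lower. Without SmoM2 1 and Sox9cKO 2, a choice made after seeing the data, it was 2323 (844 and 1479), and without SmoM2 1 and Sox9cKO 3 it was 232 (112 and 120). With a replicate block it was 125 (35 and 90), 107 shared. Same-numbered libraries did not deviate together (correlations -0.0726, 0.144, -0.143 and 0.267), so the numbers are not taken to pair them. The cause of these changes was not tested. Sox9 differed by -1.07 (exact permutation test on log2(CPM + 1)) without Sox9cKO 3 and by -0.89 without SmoM2 1 and Sox9cKO 3, where the edgeR fold was -0.87. Leaving out 1 or 2 libraries gave -1.07 to -0.4 and, in edgeR, -1.16 to -0.19. The sign changed for Sox2 with the replicate block (-0.02) and without Sox9cKO 4 (-0.13), its range over left-out libraries being -0.13 to 0.33, and for Krt19 without SmoM2 4 (0.02, range -0.35 to 0.02). K8YFP+ against K8YFP- called 4782 genes with the replicate block and 1016 to 2263 without single libraries. Depth of about 10 M counts leaves genes under 1 CPM with few reads each.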

Other observations

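Sox9 itself was highest in columnar junction cells, with 278 to 482 CPM in 4 libraries, and read 146 and 184 CPM in the embryo, 105 to 115 CPM in K8YFP+ cells and 123 to 164 CPM in K8YFP- cells. WT oesophagus held 58.9 to 124 CPM, a range that holds 5 of the 6 SmoM2 libraries. SmoM2 cells with high EpCAM read 118 to 155 CPM in 3w and 62.7 to 98.4 CPM in 7w. Those with low EpCAM labelled 7w read 34.8 to 40.7 CPM, below every Sox9cKO library, so such levels are not particular to the deletion.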
